A study of Oryctolagus cuniculus with 17 samples.

Results

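Lungs of 9 preterm New Zealand White rabbits kept in normoxia were compared across the first postnatal week. Every pup was taken by C-section at 28 days of gestation, before term, and was tube-fed a milk replacer. The groups were NT3, NT5 and NT7, lungs of pups kept at 21% oxygen until postnatal day 3, 5 or 7, with 3 samples each, and they make up 9 of the 17 RNA-seq samples of the study. The other 8 come from pups kept at 95% oxygen (3 in HT3, 2 in HT5, 3 in HT7). The comparison was NT7 against NT3, with NT5 as the middle point, with 1 entry per locus and with no fold-change minimum. No pup was born at term, so change due to age and change due to preterm birth cannot be told apart, and litters and the meaning of the replicate numbers are not given in the sources used here. The labels name homogenates of the right lung, a mixture of all of its cell types.

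In this period the rabbit lung passes from the saccular to the alveolar stage. Walls between airspaces grow secondary septa, in which myofibroblasts lay down elastin on a scaffold of fibrillins, capillaries remodel, and type 1 cells flatten while type 2 cells secrete surfactant. The basement membrane between epithelium and vessels is rebuilt at the same time, and blood leukocytes and macrophages populate the airspaces and the interstitium. The genes below are ordered by these roles.

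Poly(A) RNA was counted at 13313 loci, and totals ranged from 16145393 to 18111086 counts in NT3, from 14190322 to 17349754 in NT5 and from 13304717 to 14475361 in NT7. Levels are given as CPM, counts scaled to a fixed library total, with trimmed-mean (TMM) factors that lay between 0.985 and 1.02, and CPM is not a measure per length, so levels are compared between samples and not between genes. Lung markers were abundant in every library, with the surfactant gene SFTPC between 5840 and 13100 CPM. On principal components of the 500 most variable loci, NT5 replicate 1 stood apart on the first axis (score 26.85, with 27.5% of the variance) and NT7 replicate 1 on the second (score 22.01, with 19.44%). Neither axis followed the day, with a correlation coefficient of size 0.353 for the first (exact permutation test over 1680 assignments of days, two-sided, p = 0.356, n = 9) and 0.0608 for the second (p = 0.869). The third axis, with 13.18% of the variance, did, with r of size 0.792 (p = 0.0131, adjusted over the 3 axes 0.0393) and Spearman's rho of 0.791 (p = 0.0214), and r ranged from 0.673 to 0.899 without the 2 samples farthest from the median day over the 9 possible pairs. Without NT7 replicate 1 the second axis followed the day (r of size 0.75, exact permutation test p = 0.0375; rho 0.819, p = 0.0179, n = 8, not adjusted). Where a list described below moved by over 1.5 times without 1 of these samples, the value without it follows. NT3 replicate 2 also carried more muscle RNA, with MYH7, the slow myosin heavy chain of heart and skeletal muscle, at 28.6 CPM against at most 2.27 CPM in the other 8 samples.

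Few loci separated the days in 21% oxygen beyond the spread between pups. Of 12158 loci tested with edgeR's quasi-likelihood test, 1 passed an adjusted p of 0.05 between NT7 and NT3 (0.00823% of loci tested), and it was lower in NT7. No locus passed between NT5 and NT3 (0%, smallest adjusted p 0.231) or between NT7 and NT5 (0%, smallest adjusted p 0.156). FREM1, the locus called, also passed the test of any difference among the 3 days (0.00823%) and the test of a slope over days (0.00823%). At an unadjusted p under 0.05, 4.83% of loci were higher and 5.26% lower in NT7 than in NT3, 4.8% higher and 3.88% lower in NT5 than in NT3, and 3.45% higher and 4.31% lower in NT7 than in NT5.

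The choice of tool moved the counts more than the other scaling factors tried, under which they were 1, 0 and 0. DESeq2, fitted to the same 9 samples, called 89 loci higher (0.732%) and 98 lower (0.806%) in NT7 than in NT3, 133 higher (1.09%) and 50 lower (0.411%) in NT5 than in NT3, and 37 higher (0.304%) and 36 lower (0.296%) in NT7 than in NT5. With limma-voom the counts were 1, 0 and 0, and with edgeR fitted to all 17 samples they were 0 in each comparison. Samples of NT3 and NT7 with the same replicate number deviated together (correlations 0.186, 0.145 and 0.299), and with the replicate number as a block no locus passed between them (adjusted p = 0.12 in edgeR for the locus called without it). Without NT5 replicate 1, 58 loci passed between NT7 and NT3, 50 of them higher (0.407%) and 8 lower (0.0651%), and in a fit of the 6 NT3 and NT7 samples alone 51 passed, 46 of them higher, with 40 loci in both counts (69% of the first, 78.4% of the second). That fit with the replicate block called 17 loci, 15 of them higher, of which 9 were among the 51 (52.9% of the 17, 17.6% of the 51). FREM1, which lost its call with the block in the 9-sample fit, was among the 17, the 51 and the 58. All values below come from the 9-sample fit unless another is named, and a locus is said to rise or fall only where it passed there. Members of gene lists named beside a list's count were picked, after their values were seen, to show that list.

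Samples of NT7 and NT3 did not overlap at 1066 loci that were higher in NT7 (8.77%) and 1053 that were lower (8.66%). The corresponding shares were 7.58% and 7.35% for NT5 against NT3, and 5.41% and 6.14% for NT7 against NT5. NT5 means lay between those of NT3 and NT7 at 36.5% of all loci, at 69.8% of the non-overlapping higher loci and at 67.4% of the lower ones. Since the same NT3 and NT7 samples define both ends, the last pair of shares is a description.

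FREM1 (identifier MSTRG.266) encodes an extracellular matrix protein of epithelial basement membranes that anchors epithelium to the mesenchyme during development (chromosome 1, 39055027 to 39226834 as the table lists it). Its levels were 120, 121 and 107 CPM in NT3, 85.5, 95.5 and 97.4 CPM in NT5, and 62.1, 53.6 and 54.4 CPM in NT7. The 3 groups did not overlap, and the NT5 samples lay between the others. FREM1 fell by 1.03 on the log2 scale between NT3 and NT7 (SE 0.0932, 95% interval -1.24 to -0.82, adjusted p = 0.0111 in edgeR), from 116 ± 7.73 to 56.7 ± 4.72 CPM (SD, n = 3). Of that, the log2 difference was -0.32 from NT3 to NT5 (adjusted p = 0.322) and -0.71 from NT5 to NT7 (adjusted p = 0.156). DESeq2 gave an adjusted p of 7.23e-18 for NT7 against NT3, and edgeR fitted to all 17 samples gave 0.593. Its adjusted p in edgeR was 0.108 without NT3 replicate 1, 0.105 without NT3 replicate 2 (the sample with more muscle RNA), 0.129 without NT7 replicate 2 and 0.0828 without NT7 replicate 3, and it was 0.0251 without NT7 replicate 1. FREM1 was also called without NT5 replicate 1 and without both NT5 replicate 1 and NT7 replicate 1. It was called as well in the fit of NT3 and NT7 alone, with and without the replicate block.

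**Figure D1:**
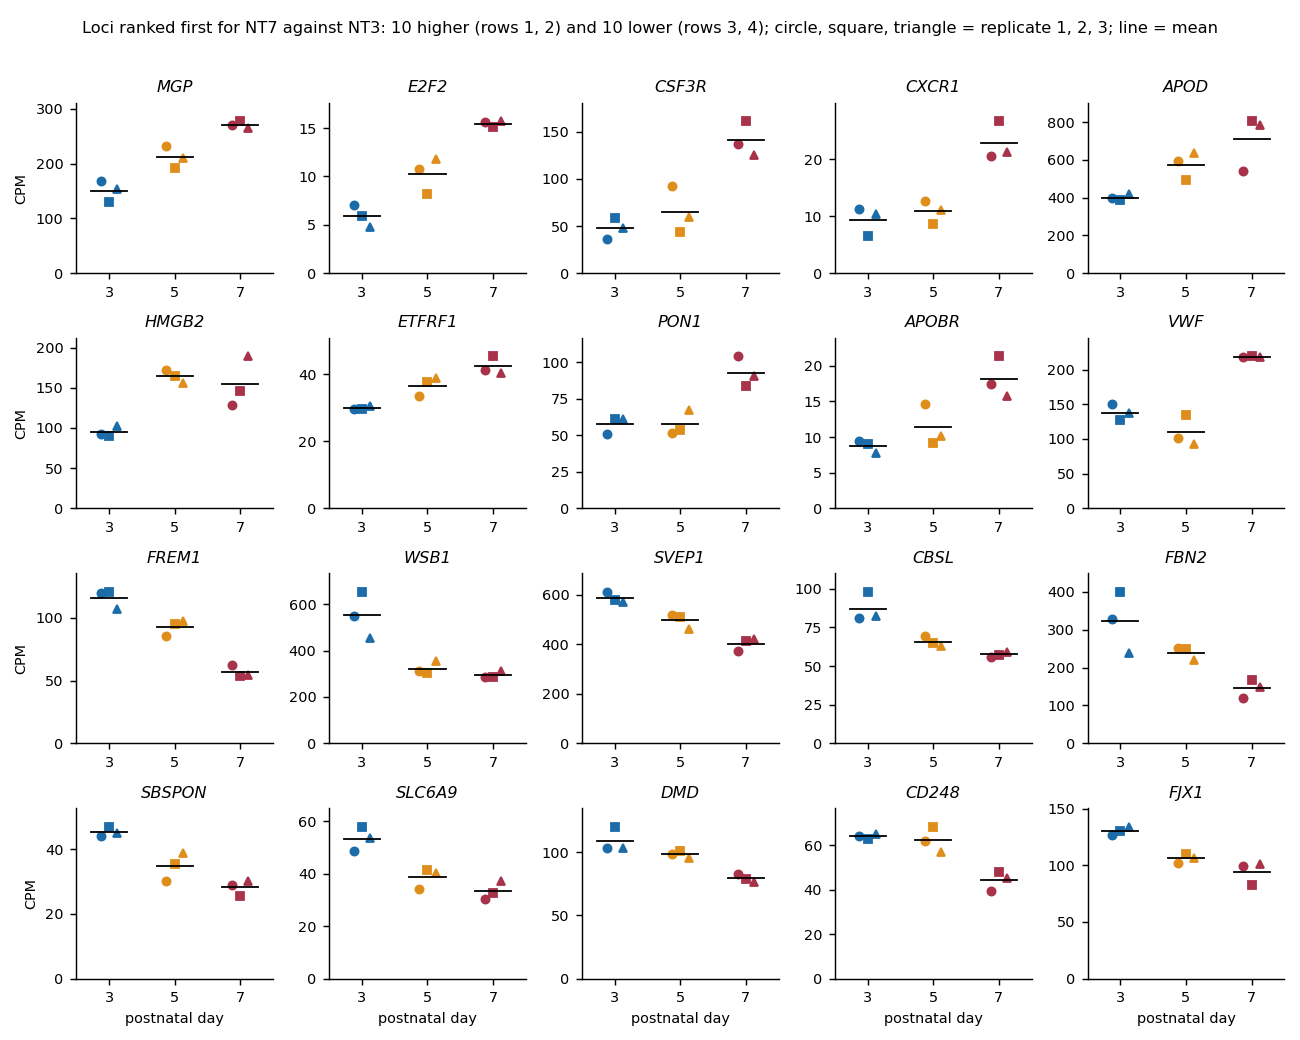
CPM (y axis, linear, from 0) against postnatal day (x axis) for the 10 loci ranked highest among those higher in NT7 than in NT3 (upper 2 rows) and the 10 among those lower (lower 2 rows). Each symbol is 1 sample (circle, square and triangle for replicates 1, 2 and 3) and lines are group means. NT3 and NT7 samples do not overlap in any panel because the ranking required it, and FREM1, from 107 or more CPM in NT3 to 62.1 or less in NT7, is the only one of the 20 that passed the adjusted test in edgeR, while the adjusted p in DESeq2 was at most 0.00253 (ETFRF1) for all 20.

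Several matrix and stromal genes were among the 10 ranked loci with lower values in NT7. FBN2, fibrillin-2, the microfibril protein of developing elastic fibers, was at 327, 400 and 239 CPM in NT3, 251, 248 and 219 in NT5, and 120, 167 and 148 in NT7. Every NT7 sample was below every sample of the other groups, and the log2 difference of NT7 against NT3 was -1.15 (SE 0.18, 95% interval -1.56 to -0.74, adjusted p = 0.183 in edgeR and 2.37e-06 in DESeq2). SVEP1, a large secreted adhesion protein, was at 612, 577 and 572 CPM in NT3, 518, 509 and 461 in NT5, and 373, 413 and 420 in NT7. The 3 groups did not overlap, and the log2 difference was -0.55 (SE 0.0786, adjusted p = 0.119). SBSPON, a secreted matrix protein with somatomedin B and thrombospondin domains, stood at 44 to 47 CPM in NT3, 30.1 to 39 in NT5 and 25.5 to 30.3 in NT7 (log2 difference -0.68, SE 0.12, adjusted p = 0.22). CD248, endosialin, a surface protein of stromal cells and pericytes, was at 62.8 to 64.9 CPM in NT3 and 39.2 to 48 in NT7, with NT5 at 56.7 to 68.3 (log2 difference -0.54, SE 0.1, adjusted p = 0.22). Because these are whole-lung homogenates, fewer cells of a type and less RNA per cell cannot be told apart, here and below.

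Of 17 tested loci of an elastic fiber list, 15 had lower values in NT7 than in NT3, with a median log2 difference of -0.24 beside 0.01 over all loci. None was called by edgeR, 8 had no overlap between the groups, 6 had an unadjusted p under 0.05 and 3 were called by DESeq2. Over all loci, the shares in the lower direction were 8.66%, 5.26% and 0.806%. Besides FBN2, the lysyl oxidase LOXL1, which crosslinks tropoelastin, was at 306, 274 and 255 CPM in NT3 and 180, 215 and 208 in NT7, which is no overlap (log2 difference -0.47, SE 0.0936). EMILIN1, an elastic fiber glycoprotein that shares its locus with KHK, CAD and ATRAID, was at 492 to 538 CPM in NT3 and 347 to 418 in NT7 (log2 difference -0.43, SE 0.0857). FBLN5, fibulin-5, which tethers elastin to cells, lay at 327 to 339 CPM in NT3 and 241 to 300 in NT7 (log2 difference -0.32, SE 0.11). Without NT7 replicate 1, 12 of the 17 loci were lower, 3 with an unadjusted p under 0.05, and the median was -0.16.

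Elastin itself showed no clear step. ELN was at 5670, 4960 and 4720 CPM in NT3, 3580, 3530 and 4010 in NT5, and 3980, 5420 and 3330 in NT7. NT5 did not overlap NT3, while NT7 replicate 2 lay within the NT3 range, and the 95% interval of the NT7 difference ran from -0.63 to 0.09 log2 (adjusted p = 0.603). For LOX the interval was -0.57 to 0.19, for the fibrillar collagen genes COL1A1 -0.53 to 0.03 and COL3A1 -0.44 to 0.23, and for smooth muscle actin ACTA2 -0.49 to 0.05.

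In the list of collagens and interstitial matrix, 20 of 27 tested loci had lower values in NT7 than in NT3 (median log2 difference -0.18). Of the 20, 7 had no overlap (beside 8.66% of all loci). An unadjusted p under 0.05 was reached by 7 of them (beside 5.26%), a number that was 1 without NT7 replicate 1. The chains of basement membrane collagen were among them. COL4A3 and COL4A4, which form the network shared by alveolar epithelium and capillaries, differed by -0.44 (SE 0.17) and -0.43 (SE 0.12) log2, and COL4A4 was at 1060, 1110 and 949 CPM in NT3, 959, 1250 and 1010 in NT5, and 697, 791 and 828 in NT7. COL4A1 and COL4A2 differed by -0.34 (SE 0.14) and -0.32 (SE 0.13), each with its lowest value in NT7 replicate 1.

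Signals that direct septation were also mostly lower at the last day, in 26 of 32 tested loci, with a median log2 difference of -0.25. None was called by edgeR, DESeq2 called 1 higher and 2 lower, 8 had an unadjusted p under 0.05 in that direction (5 without NT7 replicate 1) and 2 in the other. Over all loci, DESeq2 called 0.732% higher and 0.806% lower, and 5.26% were lower and 4.83% higher at that unadjusted p. In hedgehog signaling, the ligand SHH was at 31, 52.9 and 33.2 CPM in NT3, 22.3, 48.2 and 41 in NT5, and 22.2, 25.5 and 23.7 in NT7 (log2 difference -0.71, SE 0.28). The effector GLI1 and the decoy receptor HHIP differed by -0.59 (SE 0.22) and -0.42 (SE 0.15). Among fibroblast growth factor receptors, FGFR4 was at 297 to 343 CPM in NT3 and 239 to 263 in NT7 (log2 difference -0.38, SE 0.1), and FGFR2 differed by -0.42 (SE 0.13). AXIN2, a target of canonical Wnt signaling, was at 137 to 163 CPM in NT3 and 101 to 116 in NT7 (log2 difference -0.45, SE 0.12). The 2 higher loci with an unadjusted p under 0.05 act in retinoid signaling. ALDH1A1, which makes retinoic acid, was at 552, 573 and 520 CPM in NT3, 543, 593 and 676 in NT5, and 961, 809 and 714 in NT7, with every NT7 sample above the rest (log2 difference 0.59, SE 0.12). CRABP1, a retinoic acid binding protein, differed by 0.78 (SE 0.28).

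Other loci ranked among the lower ones were not matrix genes. WSB1, a subunit of a ubiquitin ligase, was at 547, 654 and 453 CPM in NT3, 311, 302 and 355 in NT5, and 286, 287 and 310 in NT7. Its NT5 and NT7 samples overlapped and lay below those of NT3. The log2 differences were -0.77 (SE 0.13, adjusted p = 0.231) for NT5 and -0.91 (SE 0.13, adjusted p = 0.119) for NT7 against NT3. CBSL, listed by the name of a cystathionine beta-synthase copy, differed by -0.60 (SE 0.0919), the glycine transporter gene SLC6A9 by -0.68 (SE 0.12), dystrophin (DMD) by -0.46 (SE 0.0833) and FJX1 by -0.47 (SE 0.0888), with adjusted p-values of 0.165 for CBSL and 0.22 for the others.

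Among the loci with higher values in NT7, MGP ranked first. MGP encodes matrix Gla protein, an inhibitor of calcification made by vascular and stromal cells. It was at 169, 130 and 153 CPM in NT3, 232, 192 and 210 in NT5, and 270, 277 and 264 in NT7. The 3 groups did not overlap, and the log2 difference of NT7 against NT3 was 0.84 (SE 0.11, 95% interval 0.61 to 1.08, adjusted p = 0.1 in edgeR and 6.48e-09 in DESeq2). APOD, a lipid-binding lipocalin, was at 398, 386 and 418 CPM in NT3, 594, 491 and 634 in NT5, and 540, 804 and 786 in NT7 (log2 difference 0.83, SE 0.15, adjusted p = 0.22). PON1, an antioxidant esterase, had NT7 values above all others, with 51.1 to 61.4 CPM in NT3, 51.9 to 67.3 in NT5 and 83.8 to 104 in NT7 (log2 difference 0.68, SE 0.13, adjusted p = 0.22). ETFRF1, a regulator of mitochondrial electron transfer, had the smallest log2 difference of the ranked higher loci (0.50, SE 0.0938), with 29.6 to 30.4 CPM in NT3 and 40.4 to 45.3 in NT7.

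Leukocyte genes were among the rest. CSF3R, the receptor for granulocyte colony-stimulating factor, was at 35.8, 58.8 and 47.7 CPM in NT3, 92.1, 43.4 and 59.8 in NT5, and 137, 161 and 125 in NT7. Every NT7 sample was above every earlier sample, and the log2 difference was 1.57 (SE 0.27, 95% interval 0.98 to 2.16, adjusted p = 0.22 in edgeR and 3.61e-06 in DESeq2). CXCR1, a receptor for neutrophil chemokines, was at 11.2, 6.52 and 10.3 CPM in NT3, 12.7, 8.63 and 11.1 in NT5, and 20.6, 26.6 and 21.2 in NT7 (log2 difference 1.29, SE 0.23). APOBR, a lipoprotein receptor of macrophages, was at 7.72 to 9.45 CPM in NT3 and 15.8 to 21.3 in NT7 (log2 difference 1.06, SE 0.21).

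All 11 tested loci of the neutrophil list had higher values in NT7 than in NT3, with a median log2 difference of 1.25. None was called by edgeR, 7 had no overlap (beside 8.77% of all loci), 5 had an unadjusted p under 0.05 (4.83%) and 3 were called by DESeq2 (0.732%). Their summed level was 362.8 to 925.1 CPM in NT3, 186.7 to 863.4 in NT5 and 1223 to 1357 in NT7, so the NT7 samples lay above all others on the sum while the earlier groups overlapped. Blood was not distinguished from tissue, and erythroid RNA, summed over 10 loci, was at 186.7 to 323 CPM in NT3, 224.6 to 312.7 in NT5 and 259.8 to 370 in NT7, so these ranges overlapped. Each of the 10 erythroid loci nevertheless had a higher mean in NT7 than in NT3, with a median log2 difference of 0.78. An unadjusted p under 0.05 was reached by 4 of them (beside 4.83% of all loci), and the part of blood in the leukocyte values was not tested. Without NT5 replicate 1, 1 of the 11 neutrophil loci was called, and all 11 were higher. S100A9, a calcium-binding protein of neutrophils and monocytes, was at 331, 121 and 160 CPM in NT3, 328, 56.7 and 240 in NT5, and 514, 468 and 470 in NT7 (log2 difference 1.25, SE 0.54, adjusted p = 0.492). MPO, the peroxidase of neutrophil granules, was scarce, at 0.43, 0.719 and 0.56 CPM in NT3 and 1.05, 5.17 and 2.8 in NT7 (log2 difference 2.38, SE 0.62).

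Macrophage markers were higher in NT7 than in NT3 at 17 of 19 tested loci, with a median log2 difference of 0.48. Of the 17, 3 had an unadjusted p under 0.05 (beside 4.83% of all loci), a number that was 8 without NT5 replicate 1 and 1 without NT7 replicate 1. NT5 replicate 1 stood apart here, with a summed level of 3222 CPM against 1495 and 1600 in the other NT5 samples, 1676 to 1760 in NT3 and 1954 to 2341 in NT7. VSIG4, a complement receptor of resident macrophages, was at 29.1, 32.3 and 26.3 CPM in NT3, 80.5, 27.4 and 40.3 in NT5, and 78, 70.5 and 45.8 in NT7 (log2 difference 1.15, SE 0.35). MARCO, a scavenger receptor of alveolar macrophages, ranged from 21.6 to 52.7 CPM in NT3 and from 27.7 to 101 in NT7 (95% interval of the log2 difference -0.11 to 2.03).

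Some leukocyte genes passed in fits without NT5 or without NT5 replicate 1, and those that follow were chosen after their values were seen. WAS, an actin regulator of blood cells, was at 22.3, 23.5 and 23.8 CPM in NT3, 67.4, 26.6 and 35.6 in NT5, and 54.1, 53 and 53.2 in NT7. NT3 and NT7 were each tight, NT5 replicate 1 was the highest of all, and the adjusted p in edgeR was 0.244 with all 9 samples, 0.0105 with NT3 and NT7 alone, 0.0345 in that fit with the replicate block and 0.0166 without NT5 replicate 1. PTPRC, the pan-leukocyte phosphatase CD45, was at 77, 93 and 88.2 CPM in NT3, 194, 89 and 108 in NT5, and 152, 144 and 149 in NT7. Its log2 difference of NT7 against NT3 was 0.78, with an adjusted p in edgeR of 0.347 with all samples, 0.027 with NT3 and NT7 alone, 0.0524 in that fit with the replicate block and 0.0262 without NT5 replicate 1. ITGAL, the integrin chain of lymphocyte function-associated antigen 1, followed the same order, with 109 to 127 CPM in NT3, 128 to 252 in NT5 and 192 to 211 in NT7.

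Genes of the cell cycle had their highest values on day 5. Of 37 tested loci of an S phase and mitosis list, 37 were higher in NT5 than in NT3, with a median log2 difference of 1.47, and 36 had no overlap between the groups. In the 9-sample fit 34 had an unadjusted p under 0.05 and none passed after adjustment, while DESeq2 called 27. Over all loci, 7.58% were higher without overlap, 4.8% were higher at that unadjusted p, and DESeq2 called 1.09% higher. The summed level of the list was 760.8 to 1023 CPM in NT3, 1846 to 2137 in NT5, and 728, 1153 and 1872 in NT7. The NT5 samples were alike, whereas NT7 replicate 1 was below every NT3 sample and NT7 replicate 3 was within the NT5 range.

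Single genes showed the same spread. MKI67, a nuclear protein of dividing cells, was at 42, 42.2 and 55.6 CPM in NT3, 225, 204 and 162 in NT5, and 42.4, 102 and 178 in NT7 (log2 difference of NT5 against NT3 2.08, SE 0.41, 95% interval 1.16 to 3.00, adjusted p = 0.231 in edgeR and 0.00404 in DESeq2). TOP2A, the topoisomerase that untangles chromosomes in mitosis, was at 46.5, 38.4 and 60.1 CPM in NT3, 185, 183 and 184 in NT5, and 36.1, 104 and 173 in NT7 (log2 difference 1.93, SE 0.44, adjusted p = 0.237 in edgeR). Estimates were larger for some spindle genes than for some replication genes, picked after their values were seen. KIF11, a spindle motor, differed by 1.98 (SE 0.43) and the checkpoint kinase gene BUB1 by 2.03 (SE 0.38), while the helicase genes MCM2, MCM5 and MCM7 differed by 0.63 (SE 0.27), 0.68 (SE 0.32) and 0.38 (SE 0.2). This order of the estimates was not tested.

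Leaving out NT7 replicate 1 changed the calls of NT5 against NT3, although that sample belongs to neither group, since it enters the shared fit. Then 75 loci were called higher in NT5 (0.61%) and 11 lower (0.0894%), and 22 of the 37 cell cycle loci were among the higher ones. Without both NT5 replicate 1 and NT7 replicate 1, 41 loci were called higher in NT5 (0.334%) and 5 lower (0.0407%), and 16 of the 46 were in the list. KIF14, a motor of cytokinesis chosen after its values were seen, was at 7.12, 6.25 and 7.28 CPM in NT3, 32.2, 32.4 and 25.2 in NT5, and 6.01, 16.4 and 23.3 in NT7, with an adjusted p of 0.0103 in edgeR without NT7 replicate 1. At day 7, 33 of the 37 loci were above NT3 in the mean (median log2 difference 0.79) and 17 had an unadjusted p under 0.05 (beside 4.83% of all loci), a number that was 25 without NT7 replicate 1. This median rested on single NT7 samples, with 1.10 without NT7 replicate 1 and 0.25 without NT7 replicate 3.

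**Figure D2:**
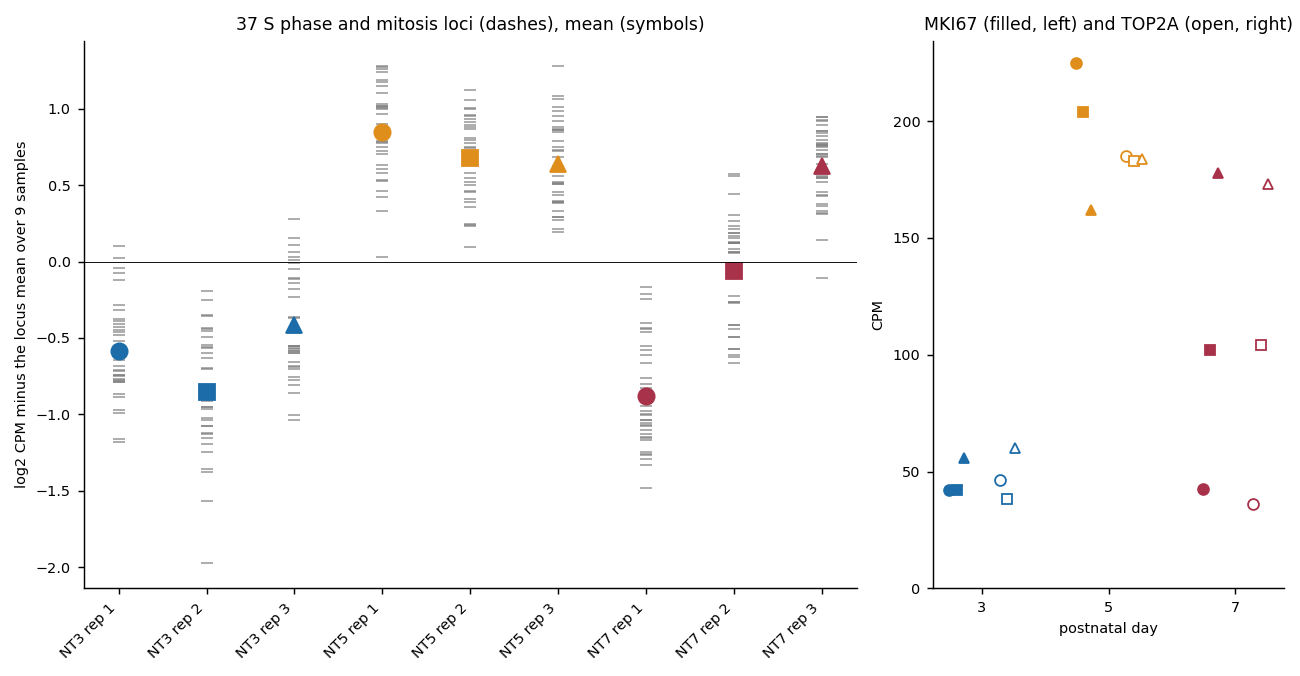
Left, for each of the 9 samples, the log2 CPM of 37 S phase and mitosis loci minus each locus's own mean (dashes) and their mean (symbols). Right, CPM of MKI67 and TOP2A by postnatal day. The 3 NT5 samples lie between 0.641 and 0.85 on the left scale and the NT3 samples between -0.851 and -0.417, while the NT7 samples spread from -0.88 to 0.628.

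Proliferation genes were among the loci ranked highest for NT5 against NT3. KPNA2, an importin that carries proteins into the nucleus, was at 40.5, 44.1 and 43.1 CPM in NT3, 79.1, 65 and 65.7 in NT5, and 49, 47.6 and 61.7 in NT7 (log2 difference 0.72, SE 0.12, adjusted p = 0.231). PRR11 and PBK, both of proliferating cells, differed by 1.99 (SE 0.34) and 1.77 (SE 0.31), and PKDREJ by 1.64 (SE 0.26). HMGB2, a chromatin protein abundant in dividing cells, had values above those of NT3 in both later groups, at 89.9 to 102 CPM in NT3, 156 to 172 in NT5 and 129 to 189 in NT7. E2F2, a transcription factor of the cell cycle, instead had its highest values on day 7, with 4.79 to 7 CPM in NT3, 8.21 to 11.8 in NT5 and 15.1 to 15.7 in NT7 (log2 difference of NT7 against NT3 1.39, SE 0.19, adjusted p = 0.119).

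Most interferon-induced genes had lower means on day 5. In NT5, 19 of 24 tested loci had lower values than in NT3 (median log2 difference -0.51), 13 had no overlap, 13 had an unadjusted p under 0.05 and 6 were called by DESeq2. Over all loci, the shares in the lower direction were 7.35%, 3.88% and 0.411%. NT5 replicate 1 stood apart, with a mean deviation over the list of 0.345 log2 against -0.354 and -0.514 in the other NT5 samples and 0.104 to 0.16 in NT3, and without it 23 of the 24 were lower (median -0.56), 14 with an unadjusted p under 0.05. RSAD2, viperin, an antiviral enzyme, was at 29.2, 33.9 and 31.5 CPM in NT3, 17.2, 21.3 and 19.5 in NT5, and 24, 19.1 and 24.7 in NT7 (log2 difference of NT5 against NT3 -0.71, SE 0.13, adjusted p = 0.231 in edgeR and 0.0012 in DESeq2). MX1, a GTPase that restricts viruses, was at 577, 487 and 435 CPM in NT3, 270, 334 and 292 in NT5, and 460, 250 and 291 in NT7 (log2 difference -0.74, SE 0.21). OAS1, which activates RNA decay, differed most among those without overlap, with 43.6 to 66.9 CPM in NT3 and 13.6 to 29.5 in NT5 (log2 difference -1.44, SE 0.39). The chemokine gene CXCL9 was at 30 CPM in NT5 replicate 1 and at most 7.98 CPM in the other 8 samples. On day 7, 18 of the 24 were lower than in NT3 (median -0.29), 7 with an unadjusted p under 0.05 (beside 5.26% of all loci). The median was -0.49 without NT7 replicate 1, with 13 such loci, and -0.15 without NT7 replicate 2.

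Other loci ranked lower in NT5 had varied roles. HIBCH, an enzyme of valine breakdown, was at 45.4 to 56.7 CPM in NT3, 28.1 to 33.6 in NT5 and 31.7 to 37.4 in NT7 (log2 difference -0.70, SE 0.12). TSPOAP1 was at 131 to 151 CPM in NT3, 79.8 to 102 in NT5 and 121 to 133 in NT7, so only its day 5 values stood apart (log2 difference -0.61, SE 0.1). The locus that holds RNF31, a ubiquitin ligase subunit, and REC8 differed by -0.41 (SE 0.0699). All 3 had an adjusted p of 0.231 in edgeR.

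Between NT5 and NT7, VWF ranked first among the higher loci. VWF, the von Willebrand factor gene of endothelium and platelets, was at 150, 127 and 137 CPM in NT3, 101, 135 and 92.4 in NT5, and 218, 219 and 218 in NT7. The NT7 samples were within 1 CPM of each other and above the rest, and the log2 difference of NT7 against NT5 was 0.99 (SE 0.13, 95% interval 0.70 to 1.29, adjusted p = 0.156 in edgeR and 7.42e-08 in DESeq2). The list of all endothelial cells, which holds VWF, did not share this. Of its 12 tested loci, 9 were lower in NT7 than in NT3 (median -0.18, -0.07 without NT7 replicate 1). Against NT5, 6 were higher and 6 lower in NT7 (median 0.02, 0.06 without NT7 replicate 1, -0.035 without NT5 replicate 1). NT5E, the ecto-enzyme that makes adenosine, was at 43.6 to 61.2 CPM in NT3, 31.6 to 39.6 in NT5 and 54.2 to 64.4 in NT7 (log2 difference 0.77, SE 0.15). CRISPLD2, a secreted protein of lung mesenchyme, and PLCH1, a phospholipase, differed by 0.86 (SE 0.15) and 1.02 (SE 0.18).

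Among those lower in NT7 than in NT5, NDNF, a secreted growth factor, was at 546, 575 and 516 CPM in NT3, 580, 610 and 515 in NT5, and 410, 358 and 410 in NT7. Its NT3 and NT5 samples overlapped and its NT7 samples lay below both (log2 difference of NT7 against NT5 -0.53, SE 0.0907, adjusted p = 0.39). CDH11, a cadherin of mesenchymal cells, behaved alike, with 274 to 312 CPM in NT3, 307 to 323 in NT5 and 222 to 245 in NT7 (log2 difference -0.44, SE 0.0753). RASAL2 and the actin regulator gene ENAH differed by -0.73 (SE 0.13) and -0.54 (SE 0.0985).

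The surfactant genes gave no called difference, and their intervals were wide. SFTPC was at 10900, 8380 and 8800 CPM in NT3, 10300, 5840 and 8760 in NT5, and 13100, 9920 and 8660 in NT7, with a 95% interval of -0.32 to 0.66 log2 for NT7 against NT3. The interval was -0.46 to 0.49 for the locus that SFTPB shares with TMEM150A and -0.64 to 0.23 for the lipid transporter gene ABCA3. SFTPA1, at 6880 CPM in NT5 replicate 1 and 2220 to 4300 CPM elsewhere, had -0.85 to 0.81. SFTPD, a collectin of innate defense, had the largest estimate of the surfactant genes, 0.59 (interval -0.01 to 1.19), with 194, 141 and 125 CPM in NT3 and 277, 213 and 203 in NT7, which is no overlap. Over 15 type 2 cell markers the median log2 difference of NT7 against NT3 was -0.02 (-0.08 without NT7 replicate 1, with 11 lower, and 0.05 without NT7 replicate 3), and of NT5 against NT3 -0.06. NT5 replicate 1 was the highest of the 9 samples on this list, and without it 14 of the 15 were lower in NT5 than in NT3 (median -0.26, 6 with an unadjusted p under 0.05) and 13 were higher in NT7 than in NT5 (median 0.25, 8 with an unadjusted p under 0.05), with none called by edgeR.

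Type 1 cell markers had a median of -0.07 over 14 loci (-0.13 without NT7 replicate 1, -0.01 without NT7 replicate 3), with members on both sides. GPRC5A, a receptor of alveolar epithelium, was at 576, 523 and 576 CPM in NT3, 514, 395 and 362 in NT5, and 411, 387 and 414 in NT7 (log2 difference -0.47, SE 0.12, adjusted p = 0.0328 in DESeq2). EMP2, a membrane protein of type 1 cells, was at 1290 to 1670 CPM in NT3 and 744 to 1210 in NT7 (log2 difference -0.65, SE 0.22). TIMP3, an inhibitor of matrix proteases, was at 666 to 791 CPM in NT3 and 817 to 1070 in NT7 (log2 difference 0.40, SE 0.13). The locus that AGER shares with PBX2 had an interval of -0.38 to 0.15 and HOPX one of -0.21 to 0.39.

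Capillary endothelial markers had a median of -0.11 over 17 loci in NT7 (6 higher, 11 lower) and of -0.23 in NT5 (2 higher, 15 lower), each against NT3. The first was -0.02 without NT7 replicate 3, -0.25 without NT7 replicate 2 and -0.27 without NT3 replicate 2, and the second -0.13 without NT5 replicate 1. In NT7 against NT5, 11 of the 17 were higher and 6 lower (median 0.09, 0.16 without NT5 replicate 2). The members below, given against NT3, had lower estimates. EDNRB, the endothelin receptor of aerocyte capillaries, was at 708, 587 and 640 CPM in NT3, 454, 490 and 702 in NT5, and 198, 517 and 394 in NT7 (log2 difference -0.80, SE 0.3, interval -1.47 to -0.14, adjusted p = 0.423). PRX, periaxin, was lowest on day 5, with 426 to 502 CPM in NT3, 260 to 372 in NT5 and 314 to 375 in NT7, and DESeq2 called it for NT5 against NT3 (adjusted p = 0.0112, log2 difference -0.61, SE 0.15). For CA4, of the same capillaries, the interval was -1.24 to 0.09 and for ACE, which makes angiotensin II, -0.57 to 0.03.

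**Figure D3:**
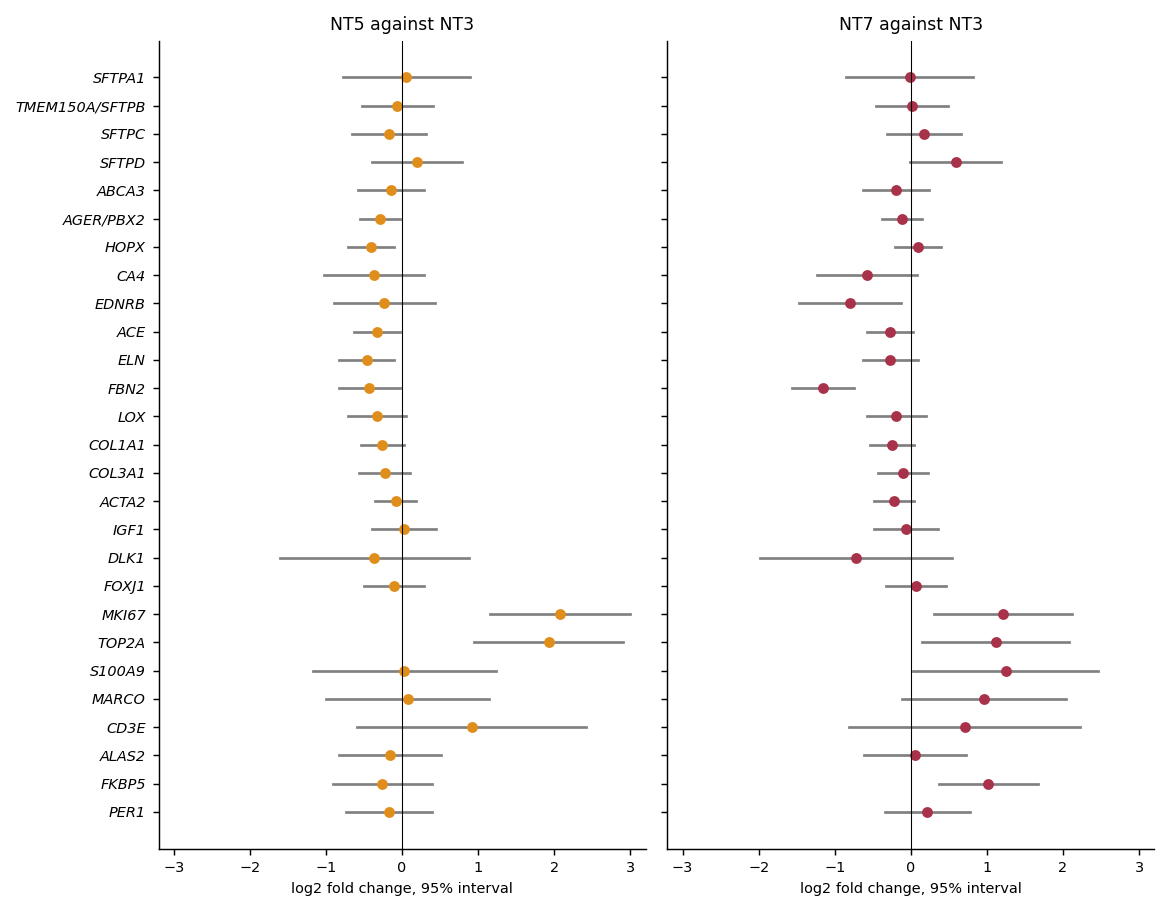
Log2 fold change (x axis) of 27 lung genes and loci for NT5 against NT3 (left) and NT7 against NT3 (right), with points for estimates and bars for 95% intervals of the 9-sample fit, not adjusted for the number of genes. On the left the intervals of MKI67 (1.16 to 3.00) and TOP2A lie farthest from 0, and on the right those of the surfactant genes include 0 while that of FBN2 runs from -1.56 to -0.74.

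FKBP5 and TSC22D3, targets of the glucocorticoid receptor, had their highest values in NT7. FKBP5, a chaperone induced by glucocorticoids, was at 53.2, 37.6 and 32.7 CPM in NT3, 34.8, 29.1 and 39.2 in NT5, and 106, 97.4 and 46.9 in NT7. NT7 replicate 3 was within the NT3 range, and the log2 difference was 1.02 (SE 0.29, adjusted p = 0.312 in edgeR and 0.0324 in DESeq2). TSC22D3, the glucocorticoid-induced leucine zipper, was at 228, 159 and 176 CPM in NT3, 164, 138 and 196 in NT5, and 450, 373 and 239 in NT7 (log2 difference 0.92, SE 0.23). The clock and glucocorticoid target PER1 had an interval of -0.35 to 0.78, and over the 14 tested loci of the list the median was 0.32, with 10 higher. Of the 14, 1 was higher and 1 lower without overlap, beside 8.77% and 8.66% of all loci. An unadjusted p under 0.05 was reached by 2 higher loci and 1 lower one, beside 4.83% and 5.26% of all loci, and the median was 0.13 without NT7 replicate 2. Against NT5, 9 of the 14 were higher and 5 lower in NT7 (median 0.35, 0.21 without NT5 replicate 2). Of the higher ones, 5 had an unadjusted p under 0.05 (beside 3.45% of all loci) and 3 had no overlap (5.41%). DESeq2 called 2 of them (0.304%) and edgeR none.

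Of 20 tested antioxidant loci, 16 had higher values in NT7 than in NT3 (median log2 difference 0.27). Of the 16, 7 had no overlap (beside 8.77% of all loci) and 5 had an unadjusted p under 0.05 (4.83%). Without NT7 replicate 1 the median was 0.16, with 15 higher and 2 with an unadjusted p under 0.05. GPX3, the secreted glutathione peroxidase, was at 217, 205 and 214 CPM in NT3, 193, 192 and 198 in NT5, and 345, 424 and 241 in NT7 (log2 difference 0.66, SE 0.16). SOD1, superoxide dismutase of the cytosol, was at 78.9 to 95.7 CPM in NT3 and 106 to 110 in NT7 (log2 difference 0.28, SE 0.0883). TKT, transketolase of the pentose phosphate pathway, differed by 0.33 (SE 0.12).

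**Figure D4:**
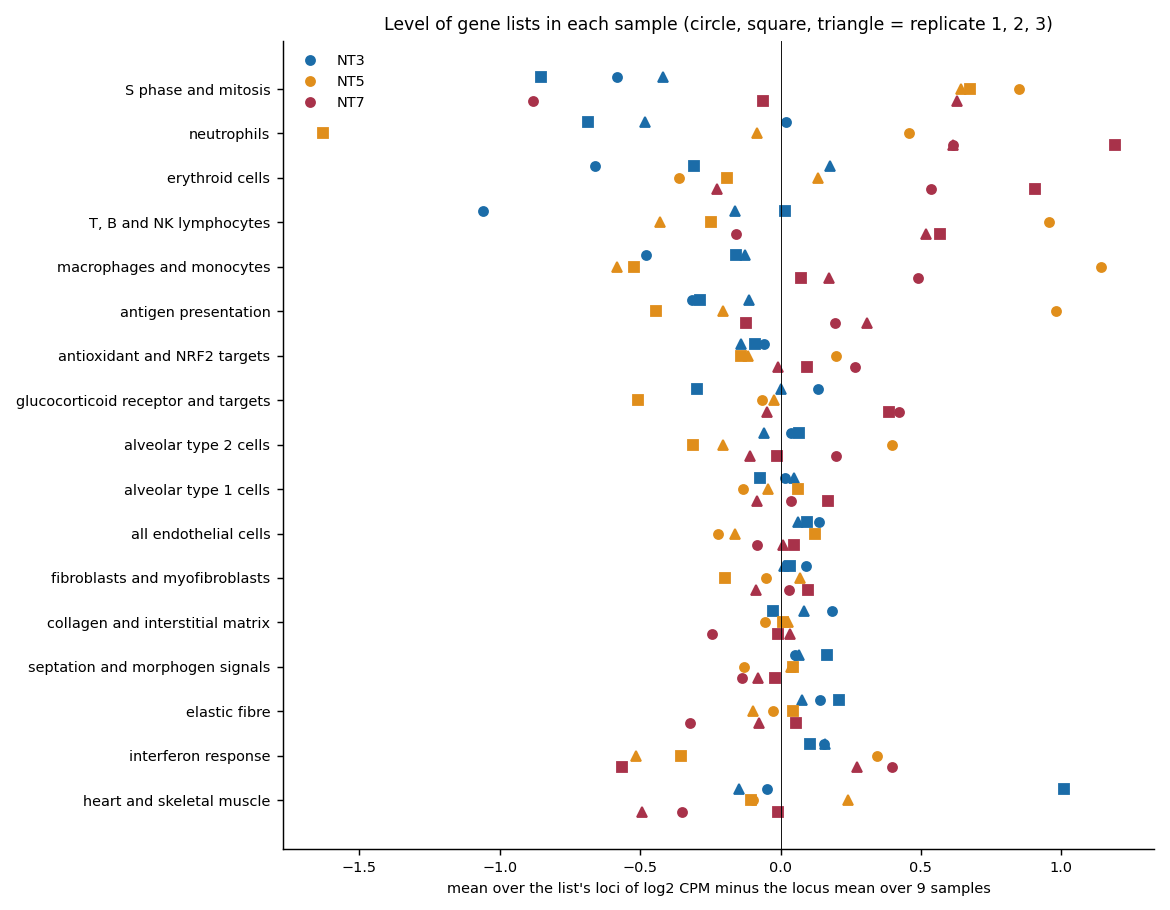
Mean over the loci of 17 gene lists of log2 CPM minus each locus's mean over the 9 samples (x axis), for every sample (circle, square and triangle for replicates 1, 2 and 3). NT7 samples lie highest on the neutrophil list, at 0.613 or more against at most 0.456 elsewhere, NT5 samples highest on the S phase and mitosis list, and NT5 replicate 1 stands apart on the macrophage list at 1.14.

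Of 18 tested imprinted and growth factor loci, 12 had lower values in NT7 than in NT3, with a median of -0.10 (-0.07 without NT7 replicate 1). None was called by edgeR or DESeq2, and 2 were lower with an unadjusted p under 0.05 in edgeR (beside 5.26% of all loci). Without NT5 replicate 1 and NT7 replicate 1, 1 was called lower, where 0.138% of all loci were called higher and 0.0244% lower. IGF1 had an interval of -0.49 to 0.35 log2, and DLK1, an imprinted fetal gene, was at 71.4, 49.9 and 55.1 CPM in NT3, 33.7, 58.2 and 45.3 in NT5, and 77.1, 12.8 and 17.3 in NT7, where NT7 replicate 1 was the highest of all samples (interval -1.98 to 0.54). IGF2R, the receptor that clears insulin-like growth factor 2, was at 798, 737 and 693 CPM in NT3 and 465, 655 and 512 in NT7 (log2 difference -0.45, SE 0.13). HMGA2, a fetal chromatin protein, was at 6.69 to 6.85 CPM in NT3, 4.88 to 7.59 in NT5 and 4.35 to 4.98 in NT7 (log2 difference -0.54, SE 0.2). Of 8 tested fetal RNA-binding and chromatin genes, 7 had lower values in NT7 than in NT3, with a median of -0.23 (-0.44 without NT7 replicate 3). Of the 7, 3 had an unadjusted p under 0.05, beside 5.26% of all loci.

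The change over the same days in 95% oxygen was set beside these values, from a fit of all 17 samples. Between HT7 and HT3, 44% of 12628 loci were called, and for 19.7% the difference between the oxygen levels in the change from day 3 to day 7 was called. Of the 20 loci ranked for NT7 against NT3, 17 had the same sign in HT7 against HT3, 12 were called there and the difference between oxygen levels was called for 6. FREM1 fell by 3.21 log2 in 95% oxygen (SE 0.38, adjusted p = 2.46e-05 in edgeR), more than its 1.03 in 21% oxygen (difference -2.17, adjusted p = 0.0083). FBN2 fell there by 1.46 (SE 0.26, adjusted p = 0.000463), and the difference between the oxygen levels was -0.30 (SE 0.36, adjusted p = 0.586). APOD went the other way, with 0.83 in 21% oxygen and a fall by 1.60 in 95% oxygen (difference -2.42, SE 0.43, adjusted p = 0.00243 in edgeR). The ranking used the NT7 and NT3 samples that also enter these differences.

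**Figure D5:**
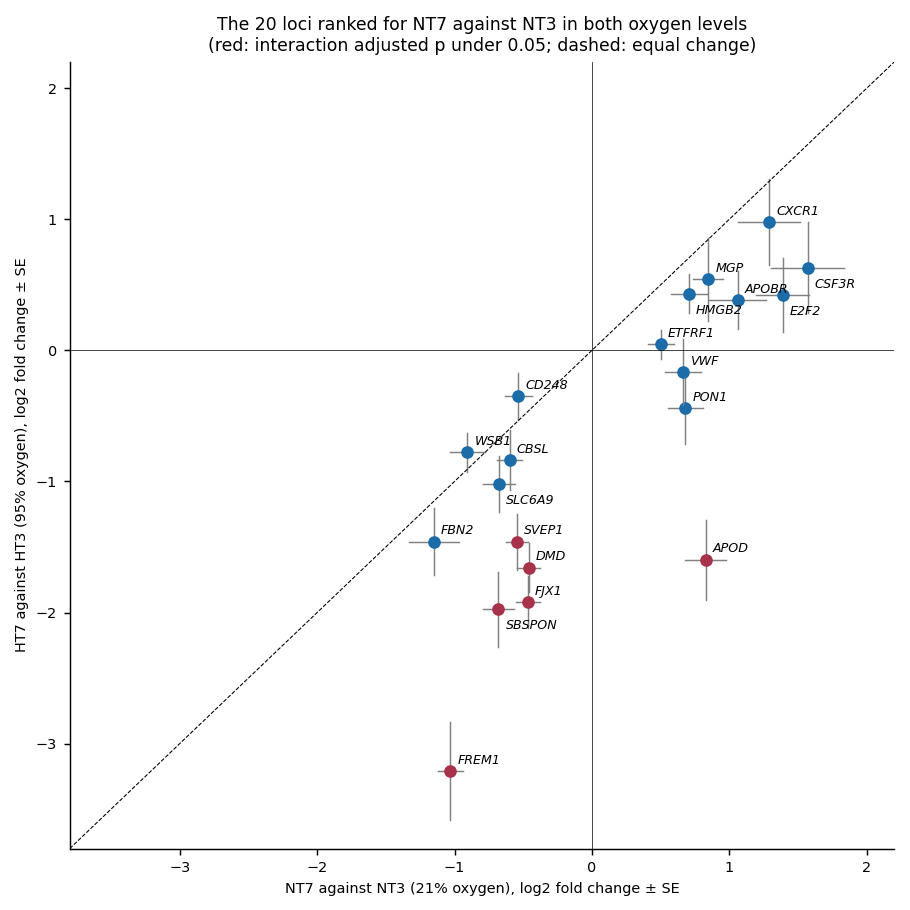
Log2 fold change from day 3 to day 7 in 21% oxygen (x axis, 9-sample fit) and in 95% oxygen (y axis, fit of all 17 samples) for the 20 loci ranked for NT7 against NT3, with bars of 1 SE. Points on the dashed line would have changed equally, red points have a called difference between oxygen levels, and APOD, at 0.83 and -1.60, is the red point whose signs differ.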

How the data were processed

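Right-lung homogenates were sequenced as stranded poly(A) libraries, paired-end. The values are raw read counts for each locus, deposited by the authors as they were counted. The submitters' processing notes name FastQC, STAR 2.7.10a and OryCun2.0, and the counting program is not given in the sources used here. Positions are as the table lists them. The table holds 13827 genes at 13313 loci, and the 434 loci with several genes were counted once each.

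Loci were kept by filterByExpr (12158 tested, 1155 not), scaled by TMM and fitted with edgeR 4.0.16 (R 4.3.3) as 3 group means over 9 samples. Calls had a Benjamini-Hochberg adjusted p under 0.05, computed across the tested loci. Intervals are the log2 fold change ± the 95% t range of its SE and cover 1 locus at a time. The common biological coefficient of variation was 0.182 with 3 samples a group. Alternatives were DESeq2 1.42.0, limma-voom 3.58.1, other factors, filters and thresholds, thinning, gene span, row definition, a replicate block, other samples and leaving out each sample. Robust edgeR, fits of NT3 and NT7 alone and the joint removal of NT5 replicate 1 and NT7 replicate 1 were added after seeing the data.

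Named loci were the 10 in each direction (5 for the comparisons with NT5) with the smallest p among named loci with a mean of at least 1 log2 CPM and no overlap between the groups, called members of the lists, and 33 lung genes, of which AQP5, GPIHBP1, IGF2, PDGFRA, SCGB1A1 and CD79A were not matched. Members of the lists that are described were picked after their values were seen. The members and the 32 lists were chosen with earlier results of these data known. Same-number NT3 and NT7 samples correlated above 0.1 in every pair, so the block is given beside that comparison, while correlations were between -0.21 and 0.0638 for NT3 with NT5. The labels do not say what the numbers stand for, so whether the pups are independent is not known. The p-values of fits without the block take the samples as independent. The count model was tested on simulated data. Figures were drawn with matplotlib 3.10.9. Rabbit sequences of the build used were not analysed here.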

Additional observations from a re-analysis of the deposited data

Results flagged for a closer look

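For 17 of 61 named loci (27.9%), beside 19.7% of all 12628 loci tested, the change from day 3 to day 7 differed between 95% and 21% oxygen, by edgeR's test of the difference itself in the fit of all 17 samples (adjusted p under 0.05). Values are the log2 change in 95% oxygen minus that in 21% oxygen. The 6 loci ranked for NT7 against NT3 were FREM1 (-2.17), SVEP1 (-0.91), SBSPON (-1.29), DMD (-1.19), FJX1 (-1.45) and APOD (-2.42), and their ranking used samples that enter the difference. Of these, APOD is the one with opposite signs in the 2 oxygen levels.

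Vessel and septum genes among the lung genes always named were ACE (-3.29), EDNRB (-1.58), ELN (-0.77), LOX (-0.92) and the locus of AGER and PBX2 (-1.86). ACE was at 1840 to 2140 CPM in NT7 and 2030 to 2680 CPM in NT3, while it fell by 3.56 log2 from HT3 to HT7. MARCO of alveolar macrophages (-2.26) and ALAS2 of heme synthesis (-1.76) also differed.

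Of the loci ranked in comparisons with NT5, NT5E (-1.50), TSPOAP1 (-0.98) and the locus of RNF31 and REC8 (-0.58) were more negative in 95% oxygen, and CRISPLD2 (1.56) was more positive. NT5E and CRISPLD2 were ranked with the NT7 samples, and TSPOAP1 and the locus of RNF31 and REC8 with the NT3 samples. Those samples enter the difference, so the 27.9% of named loci is not independent of the ranking.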

How the results depend on the processing

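The number of loci called rested on the tool and on single libraries. For NT7 against NT3, 1 locus was called with RLE or upper quartile factors, no count filter, thinning, gene span removed, limma-voom or robust edgeR, 187 with DESeq2, and 0 with all 17 samples, with the replicate block, at an adjusted p of 0.01, or at 0.01 with a log2 fold change beyond 2. Leaving out 1 sample at a time gave 0 to 58 (0 without NT3 replicate 1 or 2 or NT7 replicate 2 or 3, 2 without NT5 replicate 2, 58 without NT5 replicate 1). It was 51 with NT3 and NT7 alone, 17 with the replicate block added to that fit, and 20 without NT5 replicate 1 and NT7 replicate 1. For NT5 against NT3, 0 became 183 with DESeq2, 46 without NT5 replicate 1 and NT7 replicate 1, and 0 to 86 over samples left out (86 without NT7 replicate 1, 1 without NT7 replicate 2). For NT7 against NT5, 0 became 73 with DESeq2 and 0 to 1 over samples left out (1 without NT5 replicate 2).

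The test of any difference, with 1 locus, gave 325 with DESeq2, 0 with all 17 samples, the replicate block, upper quartile factors, gene span removed or an adjusted p of 0.01, 21 without NT5 replicate 1 and NT7 replicate 1, and 0 to 45 over samples left out (19 without NT5 replicate 1, 45 without NT7 replicate 1). The slope, with 1 locus, gave 153 with DESeq2, 3 with limma-voom, 2 with upper quartile factors, no count filter, 1 row per gene name or robust edgeR, 0 with all 17 samples, the replicate block, an adjusted p of 0.01 or without NT5 replicate 1 and NT7 replicate 1, and 0 to 25 over samples left out (25 without NT5 replicate 1). The cause of these shifts was not tested. Besides the counts given and the call of FREM1, the block in the 9-sample fit changed no call of a named locus. Of 1412 values of named loci under alternatives, 0 were reversed, 6 lost and 73 gained a call, and 22 changed sign without a call. Day did not correlate with the first component at p under 0.05 in any alternative, while the second did without NT7 replicate 1 (p = 0.0375, exact permutation test).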

Other observations

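Erythroid loci had higher means on day 7. All 10 tested erythroid loci were higher in NT7 than in NT3 (median log2 difference 0.78). Of the 10, 4 had an unadjusted p under 0.05 (beside 4.83% of all loci), none was called by edgeR and 2 were called by DESeq2 (0.732%). SLC4A1, the anion exchanger of red cells, was at 6.26, 7.63 and 14.2 CPM in NT3, 6.81, 12 and 18.1 in NT5, and 28.8, 36.7 and 16 in NT7 (log2 difference 1.54, SE 0.43). ALAS2, of heme synthesis in red cell precursors, had a 95% interval of -0.61 to 0.73. Of 16 tested clock loci 11 were higher and 5 lower in NT7 than in NT3 (median 0.17, 0.10 without NT7 replicate 2). Of the higher ones, 3 had an unadjusted p under 0.05 (beside 4.83% of all loci), none was called by edgeR and 1 was called by DESeq2 (0.732%). TEF, a clock output factor, was at 79, 97.3 and 89.4 CPM in NT3, 119, 142 and 106 in NT5, and 111, 149 and 142 in NT7 (log2 difference 0.60, SE 0.14, adjusted p = 0.0195 in DESeq2), and the time of day of collection is not given in the sources used here.

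Of 18 tested lymphocyte loci 17 were higher in NT7 than in NT3 (median 0.68, 0.44 without NT3 replicate 1), most of them with group means below 5 CPM. CD3E of T cells was at 0.921, 2.38 and 2.55 CPM in NT3, 7.6, 2.02 and 1.47 in NT5, and 1.43, 3.54 and 4.57 in NT7 (interval -0.81 to 2.22). Of 14 tested antigen presentation loci 11 were higher (median 0.33, 0.52 without NT3 replicate 3), 0 with an unadjusted p under 0.05 in edgeR and none called by edgeR or DESeq2. Without NT5 replicate 1, 7 of the higher loci had an unadjusted p under 0.05. HLA-DRA, of class II presentation, was at 94.3, 155 and 97.2 CPM in NT3, 663, 128 and 173 in NT5, and 246, 187 and 267 in NT7. Of 21 cholesterol and fatty acid synthesis loci 20 were higher (median 0.25), and 17 without NT7 replicate 1 (median 0.09). Of the 21, 1 had an unadjusted p under 0.05, beside 4.83% of all loci. Of 15 tested ciliated cell loci, 8 were higher and 7 lower in NT5 than in NT3, with a median of 0.04 that was 0.10 without NT5 replicate 1, 0.20 without NT3 replicate 1 and -0.07 without NT3 replicate 3. Of the 15, 1 was higher with an unadjusted p under 0.05, beside 4.8% of all loci. That locus, DNAH5, a dynein of motile cilia, was at 13.9 to 16.8 CPM in NT3, 23.4 to 27.6 in NT5 and 17.9 to 22.8 in NT7 (log2 difference of NT5 against NT3 0.77, SE 0.13, adjusted p = 0.000462 in DESeq2), while FOXJ1, which directs ciliogenesis, had an interval of -0.51 to 0.29 for the same comparison.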
